A study of Homo sapiens with 2 samples.

Results

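The open chromatin of 293T, a human embryonic kidney cell line, is described here from its own list of ATAC-seq peaks. All peaks of its deposited list on chromosomes 1 to 22 and X were taken, 84951 of the 85597 in the list and of the 143681 peaks in both lists of the series on these chromosomes. The series tested a Tn5 transposase that its submitters purified themselves, on 50000 cells per reaction of 293T (labelled T293) and of the leukemia line J76, which is not described further. The 293T cells were taken in exponential growth, with no treatment, and gave 1 library and 1 peak list, so nothing below has a replicate check, a test or an error between libraries.

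ATAC-seq uses a transposase that cuts DNA where it is not wrapped in nucleosomes and attaches sequencing adapters at the cut, so a peak marks a stretch that was cut often. The start sites of active genes are usually held open, and so are enhancers and the genes of short RNAs read by RNA polymerase III. The line was made from embryonic kidney cells with adenovirus DNA and later received the SV40 large T antigen, and its adenovirus fragment is known to sit in the PSG gene region of chromosome 19. Cultured 293 cells are known to express neuronal and adrenal genes beside kidney factors, so lists of those types were read too.

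The list gives, for each peak, a position, a fold over the local background at its highest point (the summit) and a significance as −log10 q, both the authors' own values, used only to rank and describe peaks within this list. It gives no read counts, so the depth is unknown, and a gene without a peak was not shown to be closed. Intervals are 95% Wilson intervals and cover counting error only. Positions are GRCh38, counted from 1.

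The 5 marker genes given for the line all had a peak within 1 kb of an end of the gene, where 69.7% of all 19974 protein-coding genes did. The markers were chosen on these data, so this describes them and checks nothing. GDNF, the growth factor that calls the ureteric bud into the kidney, had 1 wide peak at its start (chr5:37839799-37840905, fold 9.88) and 1 weak peak in its body (fold 3.13). WT1, a kidney and gonad transcription factor, had a start peak of 1435 bp (chr11:32434513-32435947, fold 6.67) among 8 peaks in its body plus 50 kb each side, the strongest by fold lying 28866 bp beyond its far end (fold 7.50). CCN2, a secreted matrix protein and standard YAP target, had its start peak at fold 8.05 (chr6:131950312-131951557) and 7 further peaks within 50 kb, of which 1 reached fold 8.20. CAV1, the main protein of caveolae, had the widest marker peak, 2115 bp across its start (chr7:116524543-116526657, fold 6), among 7 peaks. HOXC11, a body-axis factor of the HOXC cluster, had a lower peak, fold 3.28 (chr12:53973289-53974084), with 17 peaks within 50 kb. The 4 markers outside the HOX clusters thus had wide peaks over their start, and HOXC11 a crowd of mostly lower ones. The median fold in the HOXC11 window was 3.27, but the highest was 7.76, at HOXC13, and 2 of its peaks were in the top 10% of the list.

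Promoter sequences were matched to the list for 22012 distinct starts of coding genes in the RefSeq table for GRCh38.p14, each from 250 bases before to 50 after the start. A peak overlapped 14012 of them, 63.7%. The first set below shows the CpG dinucleotide in capitals, whose number differed between promoters with and without a peak. BCKDHB codes for a subunit of the enzyme that breaks down branched-chain amino acids (chr6:80106421-80106720, plus strand, 27 CpG, fold 13.7). Its peak ranked 12 in the list, the highest rank among the promoters printed in this set. GDNF (chr5:37839992-37840291, minus strand) held 32 CpG. ALB, the liver's serum albumin (chr4:73404037-73404336, plus strand, 4 CpG), and UMOD, the uromodulin of the mature nephron (chr16:20352666-20352965, minus strand, 2 CpG), had no peak.
BCKDHB: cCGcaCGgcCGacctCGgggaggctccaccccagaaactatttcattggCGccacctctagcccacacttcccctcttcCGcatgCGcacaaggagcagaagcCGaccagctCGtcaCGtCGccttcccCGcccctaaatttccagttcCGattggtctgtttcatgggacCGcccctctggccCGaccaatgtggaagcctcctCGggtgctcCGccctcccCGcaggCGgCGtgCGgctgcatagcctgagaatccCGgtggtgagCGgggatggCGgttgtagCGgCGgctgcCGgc
GDNF: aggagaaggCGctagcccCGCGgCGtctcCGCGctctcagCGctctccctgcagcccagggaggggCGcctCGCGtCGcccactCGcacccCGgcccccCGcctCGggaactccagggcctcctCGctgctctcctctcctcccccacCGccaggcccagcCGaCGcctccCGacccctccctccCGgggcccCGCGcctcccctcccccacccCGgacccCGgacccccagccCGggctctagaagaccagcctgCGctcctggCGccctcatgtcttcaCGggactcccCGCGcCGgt
ALB: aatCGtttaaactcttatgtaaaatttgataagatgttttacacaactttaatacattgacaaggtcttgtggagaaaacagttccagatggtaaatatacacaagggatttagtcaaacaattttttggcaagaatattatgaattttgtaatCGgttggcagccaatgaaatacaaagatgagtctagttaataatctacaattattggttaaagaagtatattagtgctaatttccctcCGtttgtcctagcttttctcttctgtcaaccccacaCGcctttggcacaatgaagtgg
UMOD: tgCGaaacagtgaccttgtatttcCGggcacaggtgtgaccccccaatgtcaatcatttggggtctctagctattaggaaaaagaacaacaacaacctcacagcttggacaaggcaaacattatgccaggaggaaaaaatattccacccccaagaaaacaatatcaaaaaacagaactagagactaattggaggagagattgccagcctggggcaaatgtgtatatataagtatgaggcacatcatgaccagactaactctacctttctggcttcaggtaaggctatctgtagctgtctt

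The CpG number of the promoter ran in parallel with the share that held a peak. Promoters with a peak had a median of 27 CpG (20 to 35, 25th to 75th percentile), and those without had 5 (2 to 12). Of the 3196 promoters with 0 to 3 CpG, 9.42% had a peak (8.45 to 10.5%), against 60.8% of the 1354 with 12 to 15 (58.2 to 63.3%) and 92.7% of the 5365 with 32 to 69 (91.9 to 93.3%). Peaks on promoters with the fewest CpG were also narrower, with a median width of 479 bp against 1313 bp in the group with the most. The fold was highest in the middle of the scale, at a median of 8.51 for 20 to 23 CpG, and 7.49 in the top group.

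**Figure D1:**
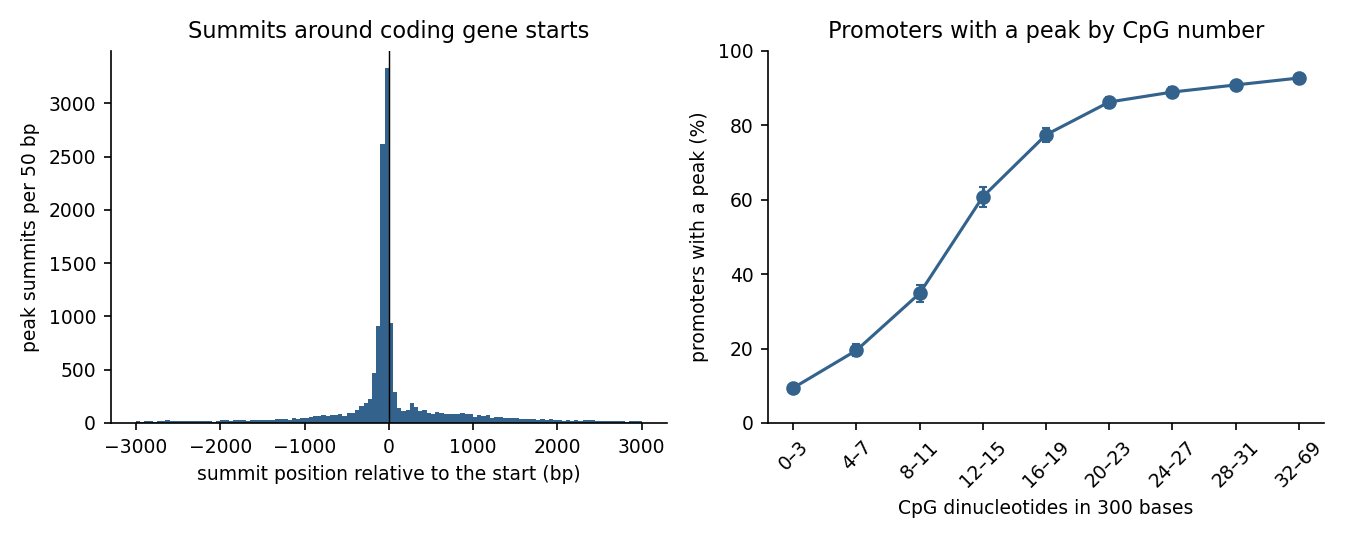
Left, number of peak summits per 50 bp against the signed distance to the nearest coding gene start (bp, negative before the start). Right, share of 300-base promoters overlapped by a peak (%) by number of CpG dinucleotides, with 95% Wilson intervals; the share climbs from 9.42% to 92.7%, most steeply between 4 and 19 CpG.

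A second set shows short motifs in capitals. The letters were searched on both strands. Those of the GC box were GGGCGG and those of the CCAAT box are its name. The ETS factors were given as CCGGAAG, while NRF1 was searched as GCGCATGCG and the E-box as CACGTG. The cyclic AMP element (CRE) was searched as TGACGTCA, and the TATA box letters were TATAAA, with AP-1 written as TGANTCA. TEAD factors had the letters GGAATG and the factor YY1 had AAGATGGCG. None of the motifs contains another. CCN2 (chr6:131951323-131951622, minus strand) is shown because its promoter holds the TEAD letters at 3 places, beside 3 GC boxes, 1 CCAAT box and 1 TATA box. NUAK2, a kinase gene that YAP is known to switch on (chr1:205321696-205321995, minus strand, fold 9.28), holds the TEAD letters at 2 places. CCNB1, which codes for the mitotic cyclin B1 (chr5:69166900-69167199, plus strand), had the highest gene end fold of all listed genes, 14.5, and holds 2 CCAAT boxes, 1 ETS match, 1 GC box and 1 E-box. RPL11, a ribosomal protein gene (chr1:23691529-23691828, plus strand, fold 8.51), holds 1 ETS match close to its start.
CCN2: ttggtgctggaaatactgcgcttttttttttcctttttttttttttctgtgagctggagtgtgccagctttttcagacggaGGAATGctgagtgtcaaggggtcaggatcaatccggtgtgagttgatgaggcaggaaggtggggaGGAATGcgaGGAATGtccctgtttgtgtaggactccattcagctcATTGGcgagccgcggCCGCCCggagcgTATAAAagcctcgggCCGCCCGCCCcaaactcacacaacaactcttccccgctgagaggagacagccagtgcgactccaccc
NUAK2: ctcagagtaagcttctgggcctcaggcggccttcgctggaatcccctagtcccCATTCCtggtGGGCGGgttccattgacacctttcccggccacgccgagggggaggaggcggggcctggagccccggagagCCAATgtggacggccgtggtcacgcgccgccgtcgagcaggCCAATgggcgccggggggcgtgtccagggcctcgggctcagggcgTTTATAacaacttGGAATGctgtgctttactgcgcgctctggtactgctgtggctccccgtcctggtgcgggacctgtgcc
CCNB1: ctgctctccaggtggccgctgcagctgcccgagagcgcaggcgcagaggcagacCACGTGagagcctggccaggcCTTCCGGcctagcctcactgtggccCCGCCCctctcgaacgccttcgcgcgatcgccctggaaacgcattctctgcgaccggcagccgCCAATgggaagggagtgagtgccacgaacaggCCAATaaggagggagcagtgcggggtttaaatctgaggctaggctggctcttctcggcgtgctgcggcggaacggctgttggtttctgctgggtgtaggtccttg
RPL11: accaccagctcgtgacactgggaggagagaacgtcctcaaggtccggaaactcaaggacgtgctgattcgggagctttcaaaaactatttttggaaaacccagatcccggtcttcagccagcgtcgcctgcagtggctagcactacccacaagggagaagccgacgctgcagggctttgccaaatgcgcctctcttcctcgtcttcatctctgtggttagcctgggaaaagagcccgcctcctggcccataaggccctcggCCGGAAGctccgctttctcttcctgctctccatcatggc

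The motif letters were spread unevenly between promoters with and without a peak. The ETS letters were present in 12.8% of all promoters, in 17.9% of those with a peak and in 3.65% of those without. The GC box was in 56.3% of all, 73.1% with and 26.7% without. The YY1 letters were rare, in 2.42% of all, but in 3.72% with a peak against 0.138% without, and the NRF1 letters were in 2.34% of all, 3.45% against 0.388%. CRE followed the same direction (2.25% of all, 3.09% against 0.775%), as did the E-box (8.32% of all, 9.78% against 5.76%). The others ran the other way apart from the CCAAT box. The TATA box letters were in 9.49% of all promoters, 5.07% with and 17.2% without a peak, those of AP-1 in 6.16%, 4.00% and 9.94%, and those of TEAD in 12.2%, 10.1% and 15.96%. The CCAAT box was in 34.7% of all and hardly differed, 34.8% with and 34.4% without.

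Several of these motifs hold a CpG themselves, so the shares were also read among promoters with 8 to 11, 12 to 15 and 16 to 19 CpG. With the YY1 letters, 88.9% of 9, 91.9% of 37 and all 68 promoters of these bands had a peak, against 34.5%, 59.9% and 76.5% of those without them. For the ETS letters the shares were 44.3% of 115, 79.9% of 149 and 91.4% of 279, against 34.1%, 58.4% and 74.7%. The CCAAT box, level over all promoters, gave 40.9% of 521, 68.8% of 555 and 80.2% of 692, against 31.9%, 55.2% and 75.5%. Promoters with YY1, ETS or CCAAT letters thus held a peak more often in each of the 3 bands. NRF1 did not show this in every band, with 25% of 4, 64.3% of 14 and 88.5% of 52, against 34.8%, 60.7% and 77.1%. Neither did the GC box, with 31.5% of 521, 62.9% of 679 and 78.7% of 1017, against 36.5%, 58.7% and 75.6%. For CRE the shares were 30.4% of 23, 70% of 20 and 84.4% of 45, against 34.9%, 60.6% and 77.2%. The E-box excess over all promoters was not seen over 8 to 19 CpG, 57.6% of 425 against 58.1% of 4227. Nor was the deficit of the TATA box, 58.6% of 415 against 58.0% of 4237, and the TEAD letters gave 55.4% of 700 against 58.5% of 3952. By band, the TATA box gave 42.4%, 66.1% and 73.2%, against 33.9%, 60.3% and 77.8%. TEAD letters gave 38.7%, 53.8% and 78.5%, against 34.0%, 62.0% and 77.3%. E-box shares were 31.25%, 54.7% and 81.25%, against 35.1%, 61.5% and 77.0%. AP-1 letters gave 33.6%, 60.9% and 80.9%, against 34.9%, 60.8% and 77.3%. None of these kept the same direction in each of the 3 bands. Many promoters with these motifs lay outside the bands. With 20 or more CpG, the NRF1 letters gave 96.2% of 445 against 90.3% of 11167. CRE gave 96.3% of 378 there, against 90.3% of 11234, and the TATA box 87.4% of 366 against 90.6% of 11246. With 0 to 7 CpG, the TATA box gave 11.3% of 1308 against 14.7% of 4440. The CpG number itself varies more within these wider groups. A match is a description of letters, not of binding.

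Peaks sat tightly on the start side of genes. Of 11999 summits within 1 kb of a coding start, 74.2% lay before it, at a median of -45 bp (-98 to 2 bp, 25th to 75th percentile). The 50 bp just before the start held 3328 summits, against a median of 18 in a bin of the same size 2 to 3 kb away. Among 7421 genes of at least 10 kb whose ends lay apart from those of other genes, the start had a peak in 69.9% (68.8 to 70.9%), and the far end in 6.95% (6.40 to 7.55%). The start peaks were wide, 1243 bp at the median with fold 7.86, and those at the far end narrow, 361 bp with fold 4.51. Where 2 coding genes start back to back, as TMEM167A and XRCC4 (a DNA repair gene) do, the stretch between the starts had a peak in 768 of 804 pairs, 95.5% (93.9 to 96.7%). Lone starts had one within 500 bp in 60.03% of 9899 (59.1 to 61.0%). Of the peaks found, 72.7% of those between paired starts and 57.0% of those at lone starts were in the top 10% of the list.

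The 3 location classes differed in width and rank. A peak was put at a gene end when its summit lay within 1 kb of either end of a coding gene, then in a gene body, then between genes. Gene ends held 13721 peaks, 16.2% of the list (15.9 to 16.4%), on 2.39% of the chromosomes' length, or 189 peaks per Mb. Gene bodies held 33408 peaks (27.4 per Mb) and intergenic sequence 37822 (21.8 per Mb). Gene end peaks had a median width of 1092 bp (645 to 1417), body peaks 326 bp (244 to 525) and intergenic peaks 328 bp (245 to 523). Median folds were 7.21, 4.03 and 4.17 in the same order. The 2 distal classes were thus nearly alike in both measures.

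Rank by −log10 q separated the classes more sharply. Of the gene end peaks, 44.9% were in the top 10% of the list (44.1 to 45.7%), against 3.51% of body peaks and 3.07% of intergenic peaks. Read the other way, cutting the list into 10 equal steps of rank, gene ends made up 72.5% of the strongest step, 37.4% of the next, 13.5% of the third and 3.26% of the weakest. Width followed the same course, from a median of 1294 bp in the strongest step to 246 bp in the weakest. The smallest width, 200 bp, was shared by 4806 peaks. Of peaks under 300 bp, 4.67% were at a gene end (4.44 to 4.91%), and of those from 1500 to under 2000 bp, 71.8% (70.2 to 73.4%).

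**Figure D2:**
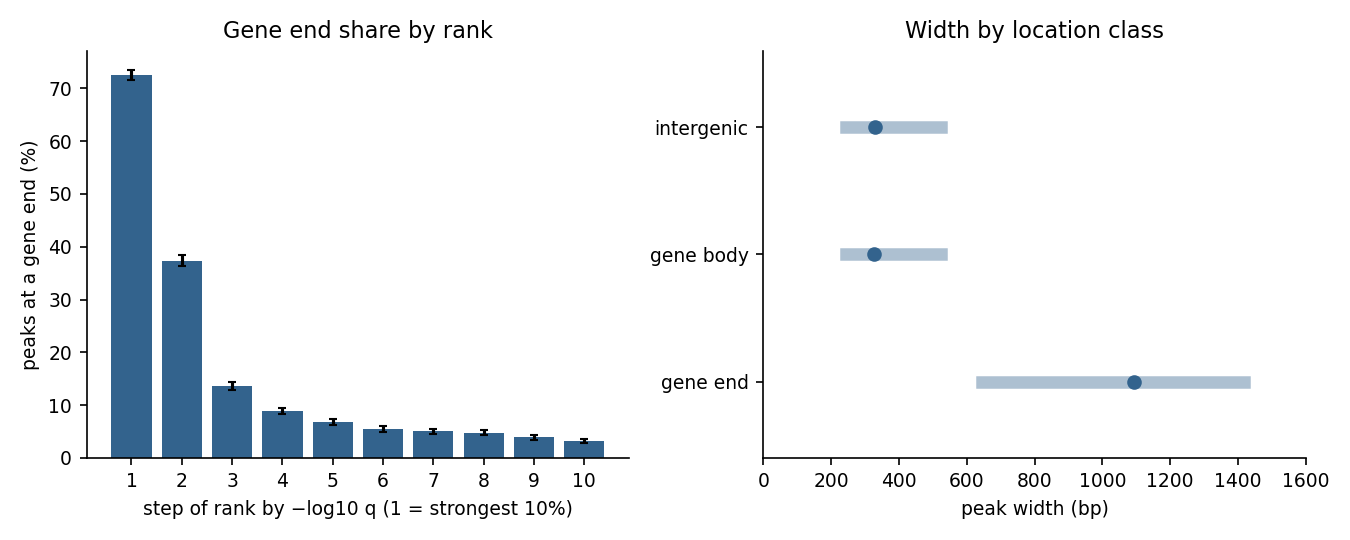
Left, share of peaks at a gene end (%) in each of 10 equal steps of the list ranked by −log10 q, with 95% Wilson intervals. Right, peak width (bp) by location class, with the median as a point and the 25th to 75th percentile as a bar; gene end peaks, median 1092 bp, are the wide class, and the share of gene ends falls from 72.5% to 3.26%.

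The 10 widest peaks each overlapped a coding gene, 9 of them with the summit at a gene end. The widest, 3827 bp, lay at CPEB2, an RNA-binding translation regulator (chr4:15001360-15005186, fold 3.67), next to 3786 bp at SLIT2, an axon guidance ligand (chr4:20251451-20255236, fold 2.97). Peaks of 3609 bp at DACH1, 3533 bp at FZD7 (a Wnt receptor), 3501 bp at ADGRL3 and 3434 bp at ADGRL2 (adhesion receptors) followed. The others were at SMARCA2, an ATPase of a chromatin remodeller (3285 bp), PPP3CA, the catalytic subunit of calcineurin (3281 bp), FOXP2 (3258 bp) and HIVEP2 (3228 bp). Their folds, from 2.97 to 5.34, were below the median of gene end peaks, so the widest peaks were not the tallest. The widest bin as a whole, 779 peaks of 2000 bp and over, had a median fold of 5.44 against 8.03 for those from 1000 to under 1500 bp.

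The 10 peaks with the highest −log10 q were of another kind, with 8 outside genes. The first was 575 bp between genes on chromosome 2 (chr2:32916133-32916707, −log10 q 359, fold 20.8), 30455 bp from LTBP1, a TGF-beta binding protein gene. The highest fold among them, 31.8, was at chr13:109424046-109424425, with MYO16 as the nearest coding gene at 216239 bp. The third lay at chr3:93470295-93470874 (fold 21.7, PROS1 at 402483 bp) and the eighth at chr11:134851604-134852272 (fold 14.2, B3GAT1 at 439681 bp). The last peaks of chromosomes X (fold 17.1, nearest gene IL9R), 22 (fold 19.3, RABL2B) and 12 (fold 24.05, ANHX) were also among these 10, as was 1 near TPTE on chromosome 21 (fold 14.6). At the other end of chromosomes, the strongest peak within 100 kb of the first base began between bases 9923 and 10000 on chromosomes 1, 3, 4, 5, 7, 10 and 18. Only 2 of the 10 lay at gene ends, SPATC1L (fold 16.2) and the shared start of TMEM167A and XRCC4 (chr5:83076893-83078125, fold 14.1). No repeat annotation was used here, and whether reads from repeated copies pile up at these sites was not tested.

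Counted by gene, the peaks in the gene body plus 50 kb each side had a median of 6 over all coding genes (4 to 9), with none at 626 genes. A count of 20 or more was reached by 417 genes, 2.09% of the 19974, and these were long, 383 kb at the median against 24.2 kb for all genes. CNTNAP2, a neuronal adhesion gene of 2304 kb, led with 98 peaks (40.8 per Mb of window). PCDH9, a protocadherin, had 86, GPC5 79 and GPC6 68 (both glypicans, heparan sulfate carriers on the cell surface), PDE4D, a cAMP phosphodiesterase, 73, and RABGAP1L 63. ROBO1 with 58 and ROBO2 with 54 are receptors for the SLIT ligands. The RYR2 calcium channel gene (55), GMDS (54), AUTS2 (54), GALNTL6 (51), DACH1 (50) and NKAIN2 (50) came next. NLGN1, LRP1B and EYS had 48 each, KLF12, FOXP1, LRBA and CCSER1 47, and GSE1, TENM2 and NAALADL2 46.

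These long genes were filled with many small peaks. The windows of the 25 held 1419 peaks, of which 43 (3.03%) were in the top 10% of the list and 545 (38.4%) had a −log10 q under 5, against 27.3% of the whole list. Their median folds ran from 3.39 (DACH1) to 4.35 (GSE1), and median widths from 278 to 432 bp. In CNTNAP2, folds ran from 2.19 to 9.07 at a median of 3.52, 1 peak was in the top 10%, and neighbours were 14685 bp apart at the median with 1 gap of 129 kb. PCDH9 was filled more evenly, with a median distance of 8547 bp and no gap over 41.3 kb. RABGAP1L had the most strong peaks of the 25, 7, while DACH1, EYS, KLF12 and FOXP1 had none. In LRP1B, 48 peaks left 1 stretch of 596 kb empty. Of the 25 genes, 5 were on chromosome 13, 5 on chromosome 3, 4 on chromosome 6 and 2 on chromosome 1.

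Longer genes had more peaks at the median, 18 from 500 kb against 5 under 10 kb, but some long genes had few. The 314 coding genes of 500 kb and over had a median of 20.9 peaks per Mb, between 0 and 83.7. SHISA9, at 661 kb, had none within its body or 50 kb of it. PTPRT (1158 kb), a receptor phosphatase, GABRG3, a GABA receptor subunit, UNC5D, a netrin receptor, and TAFA1 had 1 each, with folds between 3.34 and 6.47. Over all coding genes Spearman's rho between length and number of peaks was 0.31, and between length and density -0.19, as a description across genes that share one library. The share with a gene end peak was 54.7% for genes under 10 kb, 72.7% at 10 to 50 kb, 81.2% at 200 to 500 kb and 75.8% from 500 kb.

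**Figure D3:**
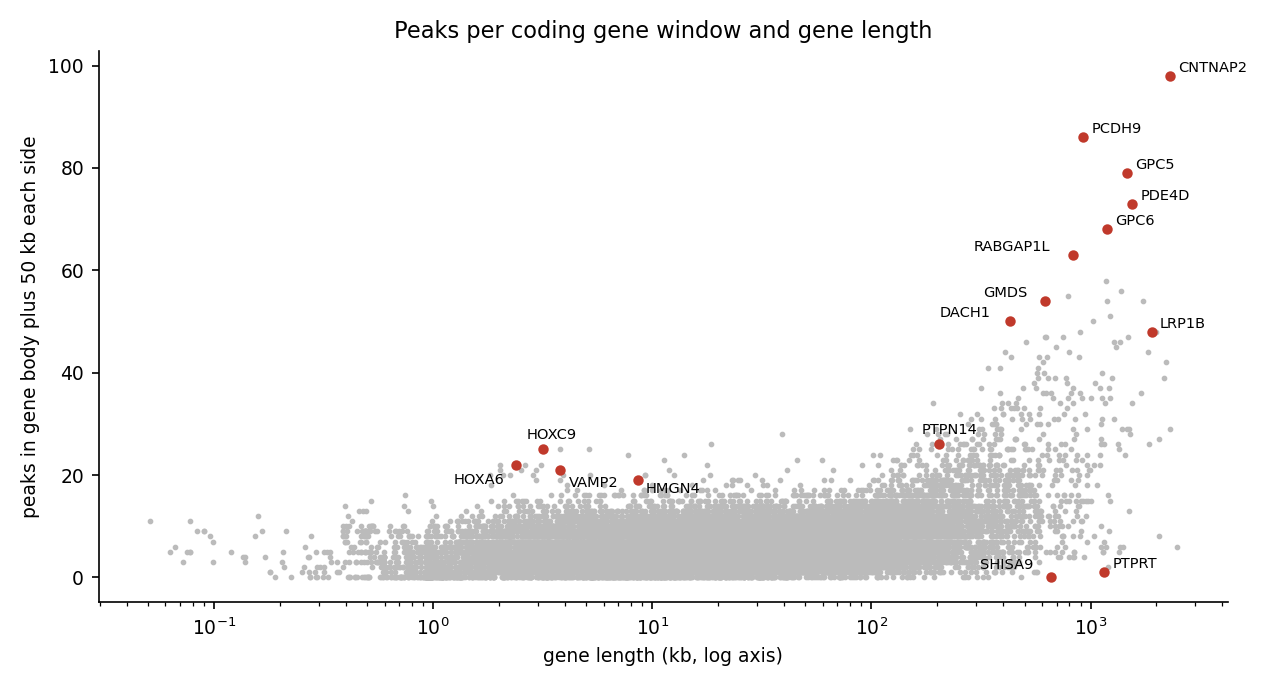
Number of peaks in gene body plus 50 kb each side against gene length (kb, log axis) for 19974 coding genes, 1 grey point each, with named genes in red. CNTNAP2 with 98 peaks and PCDH9 with 86 stand at the top, SHISA9 and PTPRT at the bottom among genes of like length, and short HOX genes above other short genes.

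By density the order was led by short genes in crowded places. HOXC9 had 25 peaks in its window, 242 per Mb, HOXA6 22 (215 per Mb) and HOXB5 21 (205 per Mb), where the median coding gene had 39.6 per Mb. Of the 40 densest coding genes, 21 were HOX genes, whose windows overlap, so they count the same peaks again. ZNF213 (223 per Mb) and OR1F1 (169 per Mb) lay beside a tRNA array on chromosome 16, VAMP2 (202 per Mb), a synaptic vesicle protein gene, beside one on chromosome 17, and HMGN4 (175 per Mb), a nucleosome-binding protein gene, beside one on chromosome 6. TRIM7 (207 per Mb) also lay beside tRNA genes, 5 of them in a crowd of peaks at chr5:181204415-181247100. The windows of RTBDN, LIN7B, DCST1, FOSB, ENO2, DVL2 and ACTB (155 to 164 per Mb) completed the 15. In the ACTB window, around the gene of cytoplasmic actin, 13 of 16 peaks lay away from any gene end.

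The 4 HOX clusters, the arrays of homeobox genes that set position along the body axis, had dense but low peaks. HOXC held 26 peaks on 117 kb (222 per Mb), HOXA 22 on 107 kb (205 per Mb), HOXD 15 on 103 kb (145 per Mb) and HOXB 25 on 200.2 kb (125 per Mb). Median folds were 2.12 in HOXA, 2.83 in HOXC, 3.13 in HOXB and 3.94 in HOXD. Counted by summits between the outermost gene ends of each cluster, HOXC and HOXD had 1 peak each in the top 10% of the list, and HOXA and HOXB none. The gene end peak of HOXC13, ranked 6089 and so also in the top 10%, has its summit just outside the HOXC span. It is not in these counts. Summits were 2.85 kb apart at the median in HOXC and 5.22 kb in HOXB. Of the 39 genes, 30 had a gene end peak, 76.9% beside 69.7% of all coding genes, with the highest folds at HOXD1 (7.82), HOXC13 (7.76) and HOXB13 (6.92) at or near cluster edges and the lowest at HOXA9 (1.98) and HOXA5 (1.90). With no other coding gene end within 2 kb, 14 of 19 HOX genes had one. HOXC4, whose window spans much of its cluster, had most peaks, 28.

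Summits of neighbouring peaks were 17124.5 bp apart at the median over 84928 pairs (6551 to 39795 bp, 25th to 75th percentile). Of the pairs, 9.78% were at most 1 kb apart and 41.0% at most 12500 bp. The distances were not spread smoothly. Pairs 0.5 to 1 kb apart numbered 5739, pairs 3.5 to 4 kb apart 747, and the count then went from 865 at 4.5 to 5 kb to 1280 at 5 to 5.5 kb. Among the strongest peaks, those with −log10 q of 50 and over, 10 pairs were 4 to 5 kb apart and 38 were 5 to 6 kb apart. What makes the step at 5 kb was not tested.

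A peak's fold was lower the more neighbours it had. The 54343 peaks with no other summit within 5 kb had a median fold of 4.80 (3.55 to 7.04), those with 1 had 3.97, those with 2 had 3.57 and the 1591 with 3 or more had 3.08 (2.55 to 3.81). The −log10 q did not follow, with medians of 9.29, 8.20, 8.17 and 9.06, nor did the share at gene ends, 16.8% and 16.9% for none and for 3 or more. A neighbour within 5 kb was present for 18.97% of the top 10% (18.2 to 19.8%) and for 43.2% of the eighth step of 10 (42.2 to 44.3%), the highest share, and for 33.6% of the weakest step (32.6 to 34.6%). The HOX clusters, with their short distances and low folds, lie at the crowded end. The fold is taken over a background that the authors' caller sets, and the part of neighbouring peaks in that background was not tested.

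**Figure D4:**
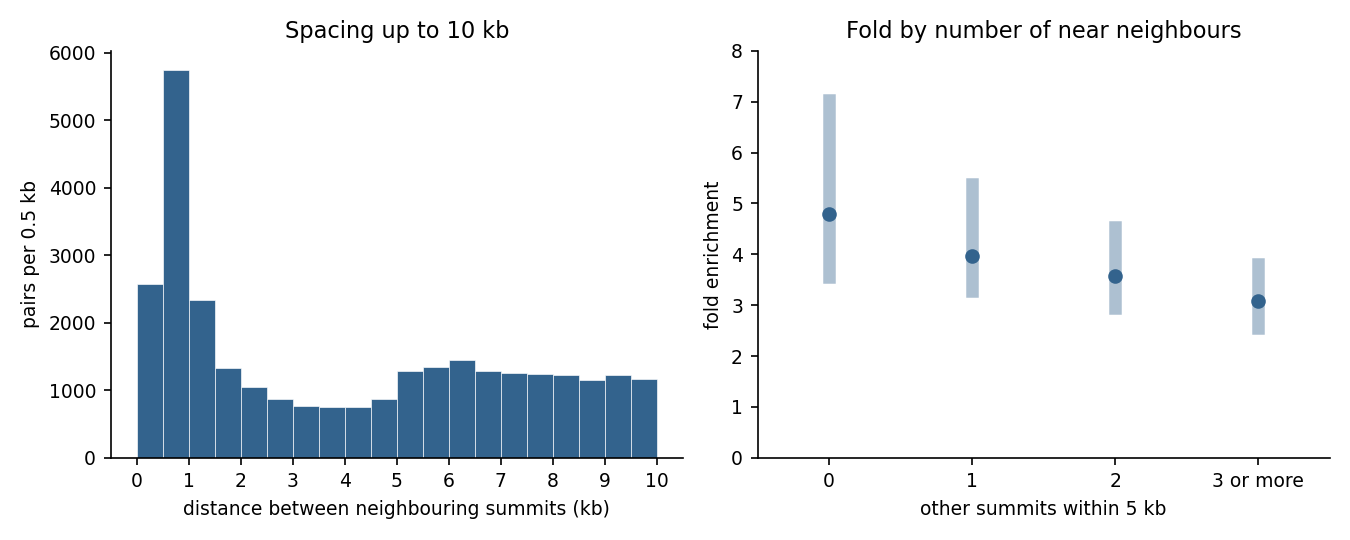
Left, number of neighbouring summit pairs per 0.5 kb of distance up to 10 kb, with a dip between 2 and 5 kb and a step up at 5 kb. Right, fold by number of other summits within 5 kb, median as a point and 25th to 75th percentile as a bar; the median goes from 4.80 with none to 3.08 with 3 or more.

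Joined where summits lay at most 12500 bp apart, the peaks formed 50105 groups, of which 31057 were single peaks, 36.6% of the list. Clusters of 10 or more numbered 132 and held 1698 peaks. Of these, 85 touched a coding gene, 47 did not, and 14 held tRNA genes. The largest, 39 peaks at chr1:143184609-143275940, touched no annotated gene, and the second, 33 peaks at chr8:85714485-85852836, touched only unnamed loci. HOXC was the third with 28 peaks, and HOXA with 20 and HOXB with 19 were also among the 10 largest. A cluster of 25 peaks at chr17:8118770-8227146 ran across 18 tRNA genes and VAMP2, the clock gene PER1, the mitotic kinase gene AURKB and the telomere replication gene CTC1. Another 25 peaks at chr17:43231586-43334453 covered an array of 13 snRNA genes and no coding gene. Clusters at chr4:49091854-49154708 (25 peaks) and chr10:41845561-41915069 (24 peaks) touched no gene, and 20 peaks at chrX:115843456-115893244 touched 2 lncRNA genes.

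Genes of short RNAs read mainly by RNA polymerase III, which has its own start machinery, were often covered. Of 443 tRNA genes, 330 were overlapped by a peak, 74.5% (70.2 to 78.3%), at a median fold of 5.89. The largest group, on chromosome 6, had 109 of 155, chromosome 1 had 66 of 98 and chromosome 17 29 of 33, while chromosome 7 had 6 of 22. The 7SK RNA gene had a peak of 1791 bp (fold 7.24), the RNase P gene RPPH1 1593 bp (fold 8.47), RMRP 1525 bp (fold 8.40) and all 3 7SL genes peaks with folds from 6.005 to 6.92. The Y RNA gene RNY5 had 1114 bp at fold 5.46, and RNY1 and RNY3 narrow peaks of 241 and 238 bp. Of the vault RNA genes, VTRNA1-1, VTRNA1-2 and VTRNA1-3 had peaks (folds 7.35, 7.01 and 9.71) and VTRNA2-1 had none. Among spliceosomal RNA genes, most of which RNA polymerase II reads, 17 of 21 of the U1 kind had a peak, at a median fold of 7.35. The 5S ribosomal RNA array on chromosome 1 had a peak at 14 of 17 genes at low folds, 1.71 to 2.72. Of all 154 snRNA genes, 46.1% were overlapped (38.4 to 54.0%), of coding genes 79.0% and of lncRNA genes 44.3%. The shares were 2.93% for snoRNA genes (2.11 to 4.04%) and 9.11% for miRNA genes (7.90 to 10.5%). Near-identical copies of tRNA, snRNA and 5S genes share reads, so how the aligner placed reads that fit several copies (not given here) bears on which copy shows a peak.

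Per chromosome, density ran from 17.3 peaks per Mb on chromosome 15 to 39.7 on chromosome 19, next to 38.8 on chromosome 1 and 36.3 on chromosome 6. Length was counted from base 1, and undetermined bases of the reference were not taken out. On chromosome 15 the first 10 Mb had 0 distal peaks and the next 10 Mb had 5, which lowers its value. Its place as the sparsest thus rests on this way of counting length. The high value of chromosome 19 came with gene end peaks, 15.8 per Mb, and that of chromosome 1 with distal peaks (summit over 1 kb from a gene end), 33.1 per Mb. Across the 23 chromosomes, Pearson's r between coding genes per Mb and gene end peaks per Mb was 0.994, and between coding genes and distal peaks -0.025. The gene end class is defined by the ends of these same genes, so the first value follows largely from the counting. Chromosomes with more distal peaks per Mb had lower folds at them (r -0.70, Spearman's rho -0.78), and also at gene ends (r -0.75, rho -0.77). Chromosome 13 had the lowest distal median, 3.73, at 26.0 distal peaks per Mb, and chromosome 15 had 4.71 at 13.1. All points share 1 library and 1 peak calling. The copy number of each chromosome in the line is not in the list, and its part in these values was not tested.

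**Figure D5:**
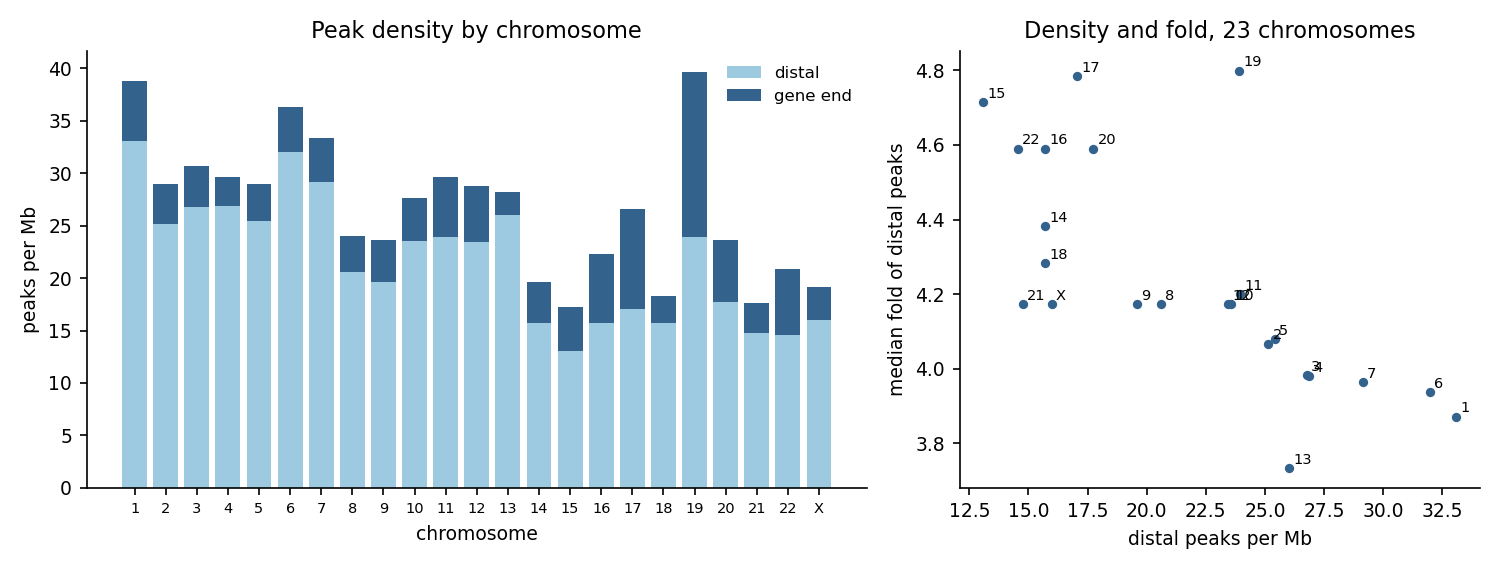
Left, peaks per Mb by chromosome (length counted from base 1), stacked as distal and gene end peaks. Right, median fold of distal peaks against distal peaks per Mb, 1 point per chromosome; chromosomes 1, 6, 7 and 13 lie at the dense and low end and 15 at the sparse and high end, with chromosome 19 away from the trend.

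Within chromosomes the distal density changed in long stretches. In 10 Mb segments the median was 22.5 distal peaks per Mb (17.8 to 29.1), and the highest was 63.0 on chromosome 13 between 60 and 70 Mb, a segment with 7 coding genes and a median distal fold of 3.37. The next 20 Mb had 49.2 and 47.7, whereas the segments from 20 to 60 Mb on the same chromosome had 14.2 to 22.5. PCDH9, DACH1 and KLF12 lie in the dense stretch. On chromosome 1 the density was 28.9 at 50 to 60 Mb, 53.2 at 60 to 70 Mb and 46.4 at 70 to 80 Mb. On chromosome 15 it was 7.20 at 20 to 30 Mb and 31.7 at 90 to 100 Mb. Across the 284 segments with 50 or more distal peaks, density and median fold went in opposite directions (r -0.62, rho -0.60).

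By 1 Mb window, the median was 27 peaks (16 to 38), and 114 of 3020 windows were empty. The windows with most peaks were 1 on chromosome 1 from 124 Mb (106 peaks), 1 on chromosome 6 from 28 Mb (96), and those on chromosome 19 from 26 Mb, chromosome 5 from 49 Mb and chromosome 6 from 116 Mb (94 each). The window at 28 Mb of chromosome 6 held 44 tRNA genes and the zinc finger genes ZNF165, ZSCAN16 and ZKSCAN8, and its neighbour from 27 Mb (85 peaks) 56 tRNA and 21 histone genes. The windows on chromosomes 1, 19 and 5 held no annotated gene of any kind. There were 147 such windows, of which 97 had no peak and 11 had 60 or more. Their 1345 peaks had a median fold of 3.96, and 10 of them were in the top 10%. Those with 30 or more peaks lay on chromosomes 1, 4, 5, 7, 10, 11, 12 and 19, where the reference sequence holds modelled centromere repeats. The widest spans without a peak were 18.0 Mb on chromosome 1 (chr1:125182758-143184608), 15.1 Mb on chromosome 9 and 8.21 Mb on chromosome 16, all with no gene, then 2.48 Mb on chromosome X and 2.46 Mb on chromosome 15. Undetermined bases of the reference were not taken out, so an empty window or span may hold no sequence that reads could match.

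Windows with more coding genes had more gene end peaks, which the definition of that class favours. Distal peaks differed mainly between windows without and with the midpoint of a coding gene. Each coding gene was counted in the window that held its midpoint, so a window inside a long gene could count as having none. Such a window, chr13:67000001-68000000, reached into PCDH9 and held 1 gene end peak. The median number of gene end peaks was 0, 3, 9 and 17 in windows with no such midpoint, 1 to 9, 10 to 19 and 20 or more. The medians for distal peaks were 10, 23, 24 and 26. The first of these includes the 97 empty windows with no annotated gene, which may hold undetermined bases.

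Gene lists were read by the number of members with a gene end peak, beside the 69.7% of all coding genes. They were chosen with results of these data known, and carry no test. Housekeeping groups were nearly complete. All 20 ribosomal protein genes had one, with folds from 4.24 (RPL8) to 11.2 (RPS19), followed by RPL27 (9.94), RPL30 (9.52) and RPL23 (8.79). Of 20 replication and cell cycle genes, 19 had one, led by CCNB1 (14.5), TOP2A, the topoisomerase that untangles chromosomes (11.6), MCM2, a helicase subunit (11.1), and AURKA, a mitotic kinase (10.3). ORC1, of the origin recognition complex, had none.

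Matrix and adhesion genes came out as full as housekeeping genes. All 20 extracellular matrix and caveolae genes had a gene end peak, with THBS1 (11.3), the collagen genes COL5A1 (9.76) and COL1A1 (9.19) and the adhesion gene VCL (8.93) highest and COL3A1 (2.53) lowest. THBS1 reached its fold with 1 peak in its whole window, while LAMC1 and COL4A2 had 13 and 12. Of 19 genes of the YAP and TEAD pathway, which reads cell contact and stretch, 17 had one, among them the DNA-binding partner TEAD2 (11.3), the upstream inhibitor NF2 (11.3), the target NUAK2 (9.28) and the kinase LATS2 (8.67). The TEAD2 peak was not at its start but at the far end, 21045 bp away. PTPN14 with 26 peaks and TEAD1 with 20 had most peaks in their windows. WWTR1, the paralog of YAP1, and FRMD6 had no gene end peak. Among 12 mesenchymal genes, 10 had one, with S100A4 (9.05), FOXC2 (8.36), SNAI1 (8.20) and SNAI2 (6.70) highest and ZEB2, with 22 peaks around it, lowest (2.499). Epithelial genes stood at 11 of 18, with JUP (10.5), CLDN1 (9.94), TJP1 (8.13) and OCLN (8.05) of the cell junctions highest, while CDH1, the epithelial cadherin, had none.

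Of 18 kidney development factors, 12 had a gene end peak, a share close to that of all coding genes, with SIX2, the factor of nephron progenitors (6.91), WT1 (6.67), OSR2 (6.66) and MEIS1 (5.69) highest, and PAX2, PAX8, GATA3, OSR1 and TCF21 were among those with none. EYA1 had 14 peaks in its window and PAX8 12. Of 14 genes of GDNF and its receptor RET, 12 had one. The ligands GDNF (9.88) and NRTN (7.14) and the response factors ETV4 (8.31) and ETV5 (8.25) were highest, the receptor RET had fold 6.78 and its co-receptor GFRA1 4.79, and PSPN and GREM1 had none. Of 18 genes of the mature nephron, 5 had one, among them CALB1 (8.74), PODXL (6.79), SCNN1A (5.88) and LRP2 (4.35). The slit diaphragm gene NPHS1, the transporters SLC12A1, SLC12A3 and SLC34A1, the water channels AQP1 and AQP2, and UMOD had none. CUBN had 14 peaks in its window without one at a gene end.

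Neuronal genes had a gene end peak at 12 of 18, close to the share of all coding genes, with SYP (10.3), MAPT (9.75), MAP2 (8.63) and GAP43 (8.05) highest. The MAP2 peak was at the first base of the annotated gene, 154307 bp from the start in the promoter table. Lists of 5 further cell types were lower. Adrenal and sympathoadrenal genes had 6 of 16, of which CHGB (13.4), DBH (8.04), HAND2 (7.49) and CHGA (7.26) are of the chromaffin side and its precursors. The DBH peak lay at the far end of the gene, 22090 bp from its start, and the steroid enzymes CYP11A1 and CYP17A1 had none. Endothelial genes had 6 of 14, with KDR (11.6), ESAM (5.73), FLT1 (5.71) and TEK (3.47). Hepatocyte genes had 5 of 16, at TAT (10.6), TF (9.78), APOA1 (9.08), APOB (5.75) and FGG (3.96). Of 18 pan-leukocyte genes 7 had one, led by CD37 (11.3), WAS (10.2), LCP1 (9.39) and CORO1A (7.52), but the CD37 peak is the one at the far end of its neighbour TEAD2, and the LCP1 peak lay at the far end of that gene, 55261 bp from its start. T cell genes had 5 of 20, at CD8A (7.13), CD4 (5.08), CD3D (3.55), BCL11B (3.53) and CD247 (2.83). The peaks of CD3D and CD247 lay at the far end of the gene. For CD4, TAT and APOA1 the promoter table held no start, so their peaks were not placed at a start or a far end. The CD4 peak lay past the end of the gene with the higher coordinate. CD3E, CD3G, CD2, LCK and ZAP70 had no gene end peak. Among the 14 T cell genes with no other coding gene end within 2 kb, 3 had one.

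The pregnancy-specific glycoprotein genes, which lie side by side on chromosome 19 and are read in the placenta, had a gene end peak at 1 of 10 members, PSG4. That peak was wide, 1655 bp at chr19:43191539-43193193, with fold 6.08, and the PSG4 window held 8 peaks. It lay at the far end of the gene, 12445 bp from its start. In the list as a whole it ranked 9886 of 84951. Further along, beyond the PSG genes, lay a peak of 556 bp with the highest fold of the region (chr19:43316708-43317263, fold 11.8). Adenovirus sequence is not part of the reference, and the position of the inserted fragment was not examined.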

How the data were processed

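ATAC-seq was made on 1 library of 293T cells. The aligner Bowtie2 and the peak caller MACS2 were used, per the submitters' processing notes. Not given in the sources used here: versions, settings, duplicate removal, read shifting and the build. Contig names in the list are those of GRCh38. The deposited list gives the authors' fold at the summit, a linear ratio, each p-value and each q-value on the −log10 scale, and an integer score that the authors derived from the −log10 q. No counts were used.

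Peaks on chromosome Y (118) and on unplaced contigs (528) were left out. Genes (19974 coding) and promoters came from RefSeq, GRCh38.p14, where 15812 coding genes had a start with strand (15712 once a start shared by several genes was counted for 1 of them). Location was set by the summit against gene ends (1 kb), gene windows by 50 kb flanks, and clusters by 12500 bp. Summits and overlaps were counted with Python 3.11.15, numpy 2.4.6, pandas 2.3.3 and scipy 1.17.1, and the counting was tested on simulated peaks. No test between groups was possible with 1 library.

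Members, lists (17, with 310 genes) and motifs were chosen with earlier results of these data known. Named were the 25 coding genes with most peaks and the 15 densest (unnamed loci and windows mostly covered by that of a higher gene left out), the 5 sparsest of 500 kb and over, the 10 strongest and 10 widest peaks, the 10 largest clusters, the 5 fullest windows and 5 widest gaps, the markers, and per list up to 4 members by fold and 2 by number of peaks. Other members and genes named, among them list members without a peak, the printed promoters, the genes of short RNAs, the narrow CpG bands and the chromosome segments, were picked with their values in view. A few genes that the rule names are not reported here. As alternatives served other −log10 q minimums, windows, flanks and stitching distances.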

Additional observations from a re-analysis of the deposited data

Results flagged for a closer look

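Peaks also lay outside the chromosomes described. The list holds 528 peaks on 77 unplaced contigs of the reference, 0.617% of the deposited list, and up to 68 on 1 contig. Their median fold was 3.55 and their median width 340.5 bp, and 32 had a −log10 q of 50 and over. They were set apart because no location or gene readout used them, and no control library was at hand to compare them with.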

How the results depend on the processing

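All settings were alternatives to the authors' threshold and to the windows used. The share of peaks at a gene end, 16.2%, was 20.8% for peaks with −log10 q of at least 5, 29.8% at 10, 13.2% with a 500 bp window and 20.7% with 2.5 kb. The share of gene end peaks in the top 10%, 44.9%, was 26.9% within the peaks of −log10 q of at least 10, 36.5% with a 2.5 kb window and 32.1% when ranked by fold. Genes with 20 or more peaks, 417, numbered 201 by gene body alone, 1404 with 100 kb flanks, and 152 and 11 at the minimums of 5 and 10. The 25 genes with most peaks shared 24, 21, 18 and 15 members with the reported 25 in the same order, and 24 with distal peaks only. CNTNAP2 was first except at both minimums, where PCDH9 was. The median of 27 peaks per Mb was 26 in 500 kb windows and 20 at a minimum of 5, where chromosome 21 (13.2 per Mb) took the place of 15 as the sparsest. The median distance, 17124.5 bp, was 23144 bp at a minimum of 5 and 16540.5 bp from edge to edge. Of the 5 windows with most peaks, 4 in 500 kb windows and 2 at a minimum of 5 lay inside the reported 5. Clusters of 10 or more, 132, numbered 8 with a stitching distance of 5 kb and 964 with 25 kb. Their order moved too. The reported largest and second largest clusters and HOXC were not among the 10 largest at 5 kb. At 25 kb the largest was chr5:49163722-49603030, with 71 peaks. Members of all lists with a gene end peak, 198 of 310, stayed between 182 and 227, and 8 of 51 single list counts moved by over 1.5 times, namely those of T cell genes (3, 9 and 3 with 500 bp, 2.5 kb and the minimum of 5), adrenal (10), nephron (8) and PSG genes (4) with 2.5 kb, endothelial genes (3) at the minimum of 5 and leukocyte genes (4) with 500 bp. Fewer peaks, or wider or narrower windows and distances, shift these values by construction; for the ranking by fold the cause was not tested. No paired analysis was possible because there was 1 library. The list gives no depth, so it limits what the absence of a peak can show.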
